A study of Mus musculus with 2 samples.

Results

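The microRNAs of the imprinted Dlk1-Dio3 region were examined in the skin and the oral mucosa of mice without wounds. Members were chosen by name alone, as every microRNA on the array whose name carries a number from a fixed list for this region. In this way 98 of the 1892 microRNAs on the array were taken. The list does not hold every microRNA of the region, and those left out are given separately below. Each tissue was measured on 1 single-colour microarray, with 2 µg of total RNA pooled from 3 animals, and each microRNA had 2 repeat spots on it. The mice were female Balb/c animals 8 to 10 weeks old, and the wound sites of the same study were dorsal skin and hard palate. The study names the profiled material as mucosal or skin tissue in some places and as epithelium in others, so the share of tissue below the epithelium is not known. With 1 pool per tissue there is no replicate between animals and no test. Unless stated otherwise, the SD of a signal is that of its 2 spots on 1 array. The SD of a difference combines the SDs of both arrays. For a microRNA detected on 1 array only, it comes from that array alone and leaves out the spread on the other. All these SDs cover technical error within the arrays only.

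The Dlk1-Dio3 region is subject to genomic imprinting, the silencing of one parental copy. The protein-coding genes Dlk1, Rtl1 and Dio3 are expressed from the paternal chromosome, and the non-coding RNAs Meg3, Rian and Mirg, together with the microRNAs, from the maternal one. A microRNA is cut from a hairpin precursor that has a 5p arm and a 3p arm, and it pairs with messenger RNAs mainly through its seed, bases 2 to 8 from its 5′ end. The microRNAs of the region are known for high levels in brain, embryo and placenta. Some of them lie antisense to Rtl1, a retrotransposon-derived gene of placental development, and direct the cleavage of its transcript.

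In the mouse genome (GRCm38.p6, RefSeq) the region from Dlk1 to Dio3 spans chr12:109452485-110281097. The precursors of 97 of the 98 members lie in it. The exception, miR-496b, is placed at chr19:16314892-16315004 and was kept because the rule goes by name. The 97 members fall on either side of the gap between Mir370 and Mir379, with 24 members from 12 precursors before Mir379 (chr12:109709060-109709125) and 73 members from 37 precursors in the dense group that runs from there to Mir410 (chr12:109743715-109743795). RefSeq held a mature entry for 94 members, and for 92 of these its sequence was the one on the array. The members were 48 5p arms, 48 3p arms and 2 microRNAs without an arm in their name.

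The 10 members that gave a signal above the detection limit on at least 1 array carry the results below. Their mature sequences, as given on the array, are shown here in the order of their precursors along the chromosome, with the seed in capitals.
miR-493-3p: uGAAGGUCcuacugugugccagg
miR-665-5p: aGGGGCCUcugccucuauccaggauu
miR-341-5p: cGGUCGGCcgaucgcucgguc
miR-758-5p: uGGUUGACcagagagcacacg
miR-494-3p: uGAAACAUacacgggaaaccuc
miR-667-3p: uGACACCUgccacccagcccaag
miR-667-5p: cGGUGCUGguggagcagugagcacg
miR-300-3p: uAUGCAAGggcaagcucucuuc
miR-539-5p: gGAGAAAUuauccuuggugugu
miR-485-3p: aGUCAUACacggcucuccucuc

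No seed was shared among these 10. Across all 98 members, 9 seeds were each held by 2 members, and the only detected member in such a pair was miR-758-5p, which has the seed of miR-1197-5p.

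Most members of the cluster were not detectable in either tissue. A microRNA was called detected on an array when the mean of its 2 spots exceeded the mean of the 16 empty spots by more than 3 SD, which put the limit at 59.9 scanner units on the skin array and at 71.8 on the oral mucosa array. By this rule 10 of the 98 members were detected on at least 1 array, or 10.2%, beside 29.7% of all 1892 microRNAs (562). Of the 10 members, 6 were detected on both arrays, 2 on the skin array only and 2 on the oral mucosa array only.

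The 88 undetected members read like the empty spots, whose average was 36.4 ± 7.84 for skin and 51.9 ± 6.65 for oral mucosa (SD, n = 16 spots). Their mean signals ran from 33.5 to 55.5 on the skin array with a median of 39.5, and from 40.4 to 65.6 on the oral mucosa array with a median of 48.7. The other undetected microRNAs had medians of 39.9 and 48.9. The members closest below the limits were miR-377-3p on the skin array, at 55.5, and miR-668-3p on the oral mucosa array, at 65.6.

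Members of the cluster with well described roles were among those not detected. miR-127-3p, which lies antisense to Rtl1, read 46.98 and 51.24 on the skin array and 57.8 and 63.0 on the oral mucosa array. miR-134-5p, known for its part in dendritic spines of neurons, read 41.3 and 46.0 on the skin array and 49.2 and 57.3 on the oral mucosa array. Neither crossed its limit with any spot. The same held for the first and the last microRNA of the Mir379 to Mir410 group. miR-379-5p read 48.8 and 39.5 on the skin array and 55.7 and 51.4 on the oral mucosa array. miR-410-3p read 39.6 and 35.8 on the skin array and 43.7 and 44.4 on the oral mucosa array.

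**Figure D1:**
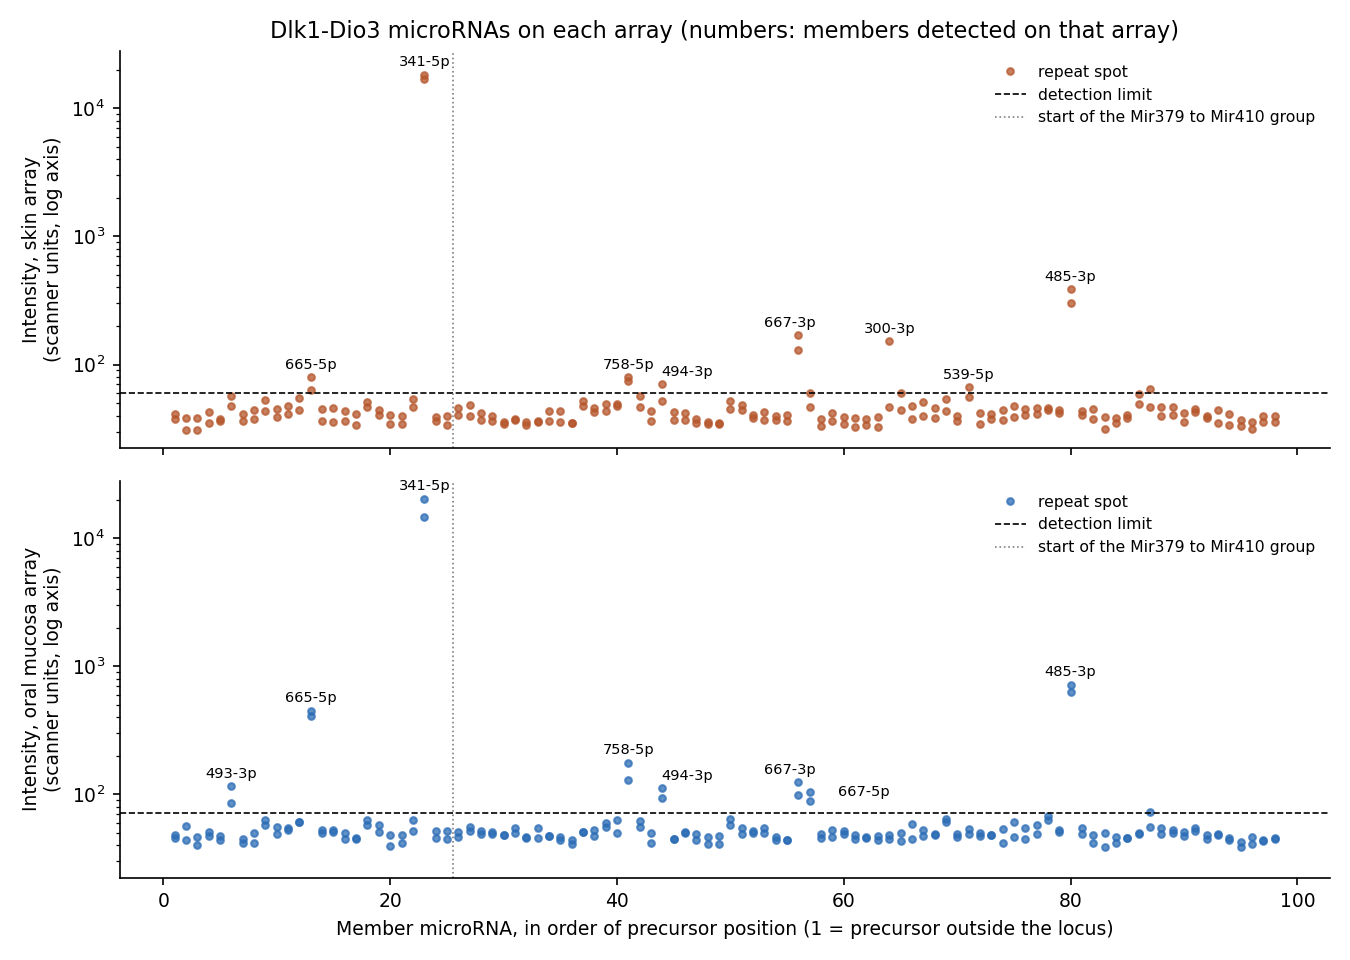
Intensity of both repeat spots (points, log axis) of the 98 members on the skin array (top) and the oral mucosa array (bottom), in the order of their precursors along the chromosome, with miR-496b, whose precursor lies elsewhere, first. Dashed lines are the detection limits of 59.9 and 71.8; most members lie below them on both arrays, and the names mark the 8 members detected on each array.

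The signals of the 2 arrays were brought to a common scale by variance stabilization (VSN), and differences are given as oral mucosa minus skin on its log2 scale. A difference was counted when it was at least 2-fold, which is the size rule below. The 19 alternative settings include a 1.5-fold and a 4-fold rule, and a pass under either is counted with the rest. This scale takes an offset, fitted to each array, out of the signal and divides the oral mucosa signal by a gain of 1.38, so that differences of dim spots are not those of the scanner signals. Where a microRNA was detected on 1 array only, its difference is a bound on this scale alone, set against the dimmest signal counted as detected on the array that missed it, or against its own signal there if that was brighter. No fold is given for such a bound, as it moves with the offsets, and the ratio of the scanner signals stands beside it. A bound that came out against the array with the detection was set to 0.00, which is not a measured equality. Of the 10 detected members, 1 was past 2-fold with the higher signal in oral mucosa, beside 13.7% of the 562 detected microRNAs, and 2 were past 2-fold with the higher signal in skin, beside 14.8%. With so few members these shares lie near those of all detected microRNAs. Under each of the 5 scalings without VSN no member was past 2-fold with the higher signal in skin. The median difference of the 10 members was 0.65 and that of all 562 was 0.00. The members' median moved with the settings, to 0.27 under quantile normalization and to -0.03 when the limit was set at 2 SD. On the VSN scale the repeat spots of all 10 members lay apart between the arrays, beside 70.8% of the 562. For members detected on 1 array only, this rests in part on signals below the limit, whose place on this scale depends on the offsets. The first skin spot of miR-300-3p, at 46.44, lay between its oral mucosa spots of 48.51 and 44.71 before scaling. The scanner spots of miR-341-5p overlapped as well. No difference between the tissues is read from this count.

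**Figure D2:**
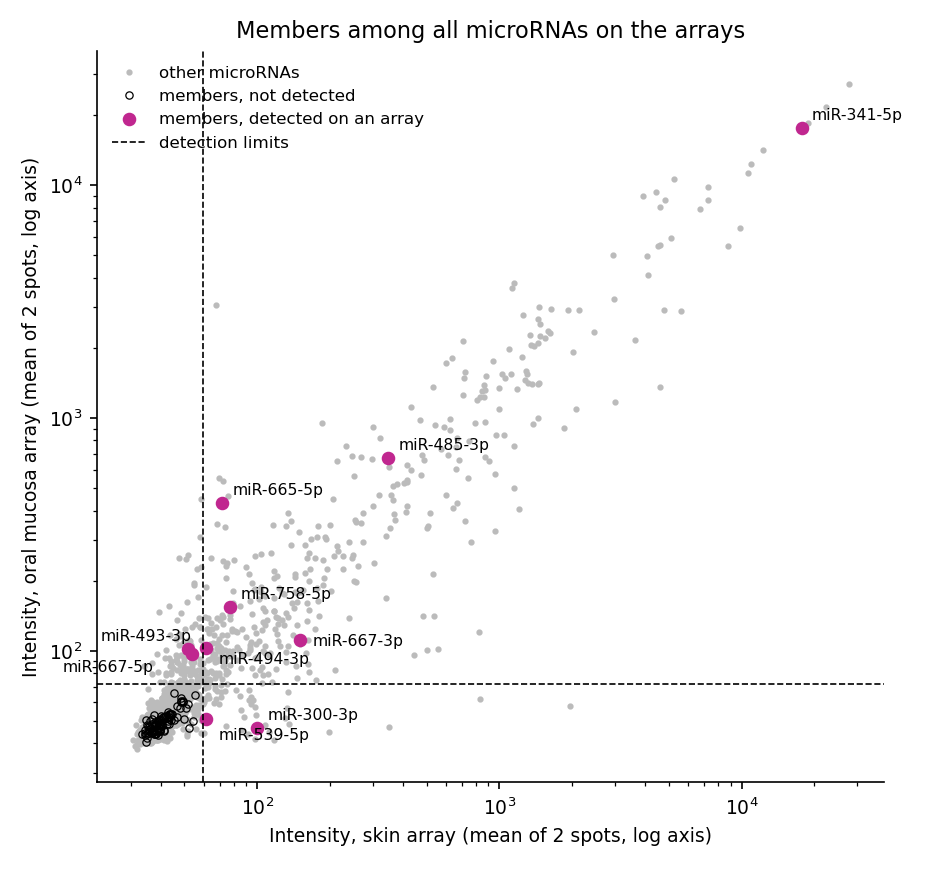
Mean intensity of the 2 spots of each microRNA on the skin array (x, log axis) and on the oral mucosa array (y, log axis), with the detection limits dashed. The 88 undetected members (open circles) lie in the cloud of background signals, and of the 10 detected members (filled) miR-665-5p stands farthest above the main band.

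Among the members detected on both arrays, miR-665-5p differed most between the tissues. Its precursor, Mir665 (chr12:109586314-109586407), lies within the span of Rtl1. It read 79.6 and 63.4 on the skin array and 449 and 410 on the oral mucosa array. Both spots in oral mucosa were above both spots in skin, and the skin signal was only 1.19 times its detection limit. The difference was 3.06 ± 0.51 (SD from the repeat spots), or 8.31-fold higher in oral mucosa on the VSN scale. It ranged from 2.02 to 3.19 over the 17 alternative settings that gave a value, and it was past the size rule under all 19 alternatives, a 4-fold rule included. The 3p arm of the same hairpin was not detected, at 49.5 ± 7.45 (SD, n = 2 spots) in skin and 61.1 ± 0.191 in oral mucosa.

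miR-667 was the only precursor with both arms detected. Mir667 lies at chr12:109720006-109720097. miR-667-3p read 169 and 131 on the skin array and 98.9 and 124.5 on the oral mucosa array. Its difference was -1.24 ± 0.54, or 2.36-fold higher in skin on the VSN scale. The raw signals of the tissues lie close together, and the size of the difference depended on how the arrays were scaled. It ranged from -1.24 to -0.43 over 7 alternative normalizations. From the earlier spot alone it was -1.77, and from the later spot alone it was -0.77, under the size rule. It was past the size rule in 12 of 19 alternatives.

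miR-667-5p read 59.95 and 47.02 on the skin array, where it was not detected, and 105 and 88.8 on the oral mucosa array, where it was. Its bound was 0.75 ± 0.34, below the size rule, and the scanner signal in oral mucosa was 1.82 times that in skin. The value ranged from 0.00, a bound set to that value, to 1.24 over the alternatives and passed the size rule in 6 of 19. The 1.24, given with detection at 2 SD and with no detection filter, is a plain difference and not a bound. The 3p arm was thus higher in skin and the 5p arm higher in oral mucosa in the values given, and the difference between the arms was not tested.

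miR-300-3p was detected on the skin array alone, and its repeat spots there disagreed. Mir300 lies at chr12:109724313-109724391. It read 46.4 and 153 on the skin array and 48.5 and 44.7 on the oral mucosa array. The first skin spot was below the limit and the second was above it. The bound was -1.73 ± 2.63, with an SD larger than the difference, and the scanner signal in skin was 2.14 times that in oral mucosa. It rests on 1 spot. From the earlier spot alone the microRNA was not detected, and requiring both spots above the limit removed it too. The bound passed the size rule in 10 of 19 alternatives and in none of the 5 that scaled the arrays without VSN. There it ran from -0.92 to 0.00, the latter a bound set to that value.

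miR-300-3p shares 16 consecutive bases with another member, miR-381-3p. The shared run is in capitals here.
miR-300-3p: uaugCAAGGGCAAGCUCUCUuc
miR-381-3p: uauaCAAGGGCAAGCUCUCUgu

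miR-381-3p was not detected, with means of 42.6 in skin and 51.7 in oral mucosa. A second such pair held a detected member. miR-758-5p shares 13 bases with miR-134-5p, which was undetected as given above.
miR-758-5p: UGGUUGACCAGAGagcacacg
miR-134-5p: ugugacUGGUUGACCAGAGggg

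The 7 remaining detected members, miR-667-5p among them, did not pass the size rule. miR-341-5p had by far the brightest spots of the cluster. Mir341 lies at chr12:109611500-109611595, within Rian. It read 18355 and 17027 on the skin array and 20341 and 14636 on the oral mucosa array, which is 295 and 244 times the limits. The raw spots overlapped between the tissues. The difference was -0.48 ± 0.35 and ranged from -0.73 to 0.00 over the alternatives. Its 3p arm was not detected, at 50.5 ± 5.21 in skin and 57.1 ± 7.95 in oral mucosa. Brightness also depends on how strongly a probe binds, so it is not read as an amount relative to other microRNAs. The sequence of miR-341-5p is 76.2% G and C, and of the 42 other microRNAs on the array with at least that share, 19 were detected, with signals up to 9778.

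miR-485-3p, whose precursor lies at chr12:109734902-109734974, was the other member well above the limit on both arrays. It read 388 and 305 on the skin array and 719 and 627 on the oral mucosa array. The spots did not overlap between the arrays. The difference of 0.56 ± 0.31, which is under the size rule, ranged from 0.37 to 0.96 over the alternatives and passed the size rule in none of them. Its 5p arm was not detected, at 41.6 ± 2.18 in skin and 51.9 ± 4.26 in oral mucosa.

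miR-758-5p fell just short of the size rule. Its precursor lies at chr12:109712810-109712890. It read 79.73 and 74.99 on the skin array and 177 and 130 on the oral mucosa array. The difference was 0.98 ± 0.47 and ranged from 0.48 to 1.27 over the alternatives. It passed the size rule in 4 of 19 alternatives, a 1.5-fold rule among them.

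miR-494-3p was close to the limit. Its precursor lies at chr12:109715318-109715402. It read 70.7 and 51.9 on the skin array and 112.5 and 93.8 on the oral mucosa array, with a difference of 0.82 ± 0.93. The value ranged from 0.13 to 0.85 over the alternatives and passed the size rule in 1 of 19, that with a 1.5-fold rule. Only 1 of its skin spots was above the limit.

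miR-493-3p and miR-539-5p were each detected on 1 array. miR-493-3p, from Mir493 within the span of Rtl1 (chr12:109580233-109580315), read 56.6 and 47.2 on the skin array and 116 and 86.5 on the oral mucosa array, a bound of 0.86 ± 0.56. Its scanner signal in oral mucosa was 1.95 times that in skin. The value ranged from 0.08 to 1.5 over the alternatives and passed the size rule in 6 of 19. The 1.5, given with no detection filter, is a plain difference and not a bound. miR-539-5p, from Mir539 (chr12:109728129-109728202), read 66.8 and 55.9 on the skin array and 53.3 and 48.8 on the oral mucosa array, a bound of -0.33 ± 0.48, with a scanner signal in skin 1.2 times that in oral mucosa. Its skin mean was 1.02 times the limit, and it was not detected once the signal around each spot was subtracted. Detection was also lost at 5 SD, from the later spot alone and with both spots required above the limit. The value ranged from -2.54, a plain difference with no detection filter, to 0.00, a bound set to that value. It passed the size rule in 1 of 19 alternatives.

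**Figure D3:**
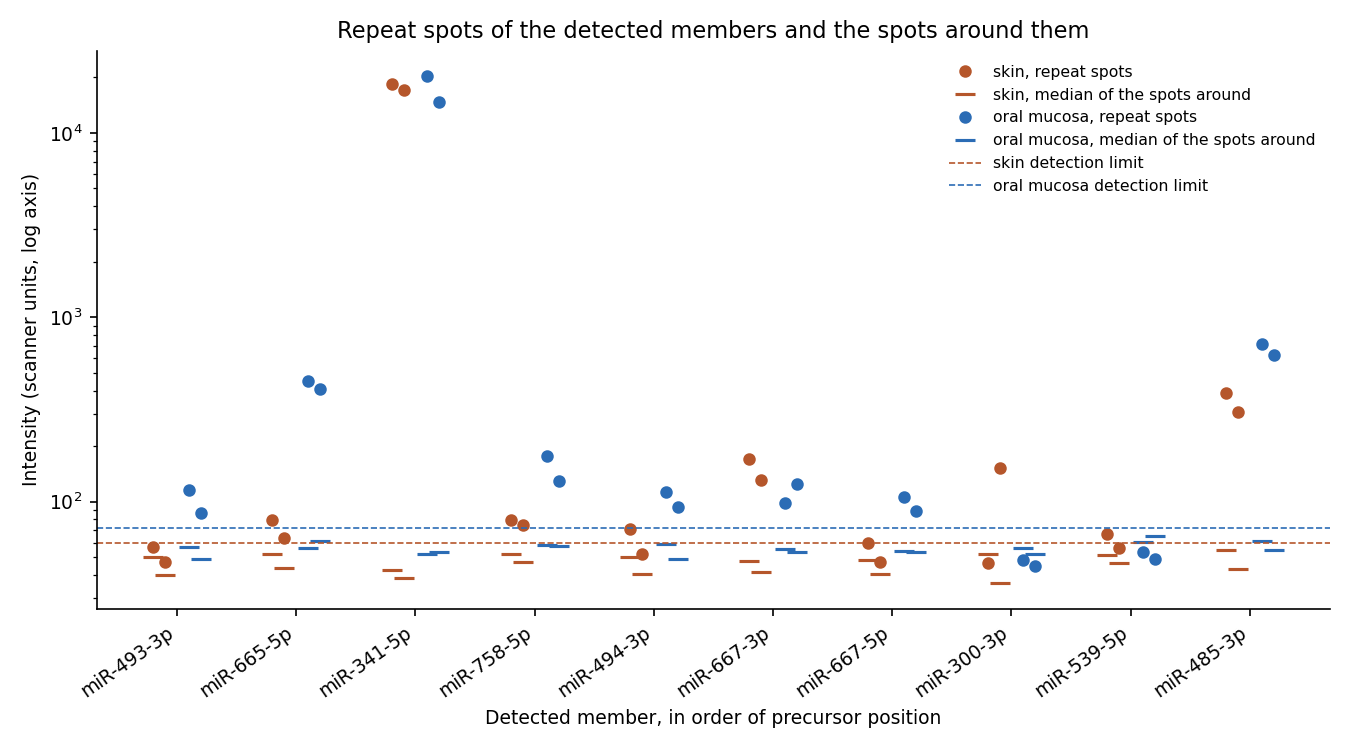
Intensity (log axis) of both repeat spots of the 10 detected members on each array, with the median of the microRNA spots around each one (short bars) and the detection limits (dashed). miR-341-5p and miR-485-3p are far above both on each array, miR-665-5p on the oral mucosa array, and the skin spots of miR-300-3p lie on either side of the limit.

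The surface of the arrays was not even, which bears on the dim members. The median signal around the spots fell from 50.6 in the first 16 rows to 35.9 in the last 16 rows of the skin array, and from 58.3 to 49.8 on the oral mucosa array. Of the 16 empty spots that set the limit, 12 lay between rows 111 and 122. These averaged 32.5 on the skin array and the other 4 averaged 47.8, whereas on the oral mucosa array the averages were 54.7 and 43.3. With the local background subtracted from each spot, 9 members were detected in place of 10, beside 508 of all 1892 microRNAs. Of these members 4 were past 2-fold, namely miR-665-5p, miR-758-5p, miR-667-3p and miR-300-3p, beside 28.9% of the 508. Of the 10 detected members, 7 stayed below 200 units on their brighter array, beside 331 of the 562 detected microRNAs. Both spots were above the limit on an array for 8 of the 10, beside 509 of the 562.

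**Figure D4:**
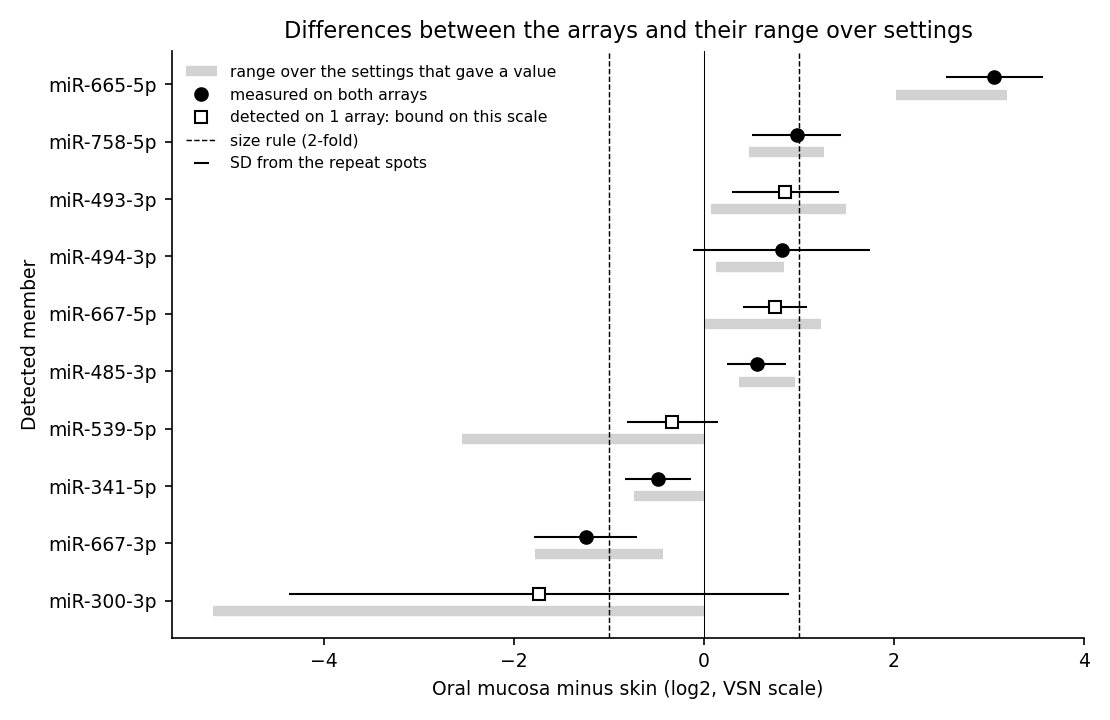
Difference between the arrays (oral mucosa minus skin, log2 on the VSN scale) of the 10 detected members, with the SD from the repeat spots; open squares are bounds on this scale for members detected on 1 array. Grey bars give the range over the alternative settings that gave a value, and dashed lines mark 2-fold: only the bar of miR-665-5p lies wholly beyond it.

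Detected members were found on both sides of the gap in the region. Before Mir379, 3 of 24 members were detected, from 3 of 12 precursors. From Mir379 on, 7 of 73 members were detected, from 6 of 37 precursors. By gene span, 2 of 9 precursors within that of Rtl1 and 1 of 2 within that of Rian had a detected arm. So did 6 of 28 that lie within no coding or long non-coding gene of RefSeq. None of the 9 precursors within Mirg and not the 1 within Meg3 (Mir770) had one. Of all 50 precursors of the members, 9 had a detected arm. No difference by gene span is read from these small counts. Both arms of 48 precursors were on the array. The detected members were 5 of the 48 5p arms and 5 of the 48 3p arms.

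The detected members were richer in G and C than the undetected ones. The median share of G and C was 56.8% in the 10 detected members and 47.6% in the 88 undetected ones, beside 52.6% and 50% in all detected and all undetected microRNAs. Of the 19 members with less than 40% G and C none was detected, beside 27.6% of the 290 microRNAs on the array in that range. Of the 16 members with 60% or more, 3 were detected, or 18.8%, beside 34.0% of 477 microRNAs. The part of base composition in detection was not tested.

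The other microRNAs that RefSeq places between Dlk1 and Dio3, but whose numbers the naming rule does not include, were 20 on the array. Of these 4 were detected, beside the 29.7% of all microRNAs. miR-3072-5p gave 225 ± 8.6 in skin and 223 ± 35.9 in oral mucosa. miR-3070b-3p gave 134 ± 6.73 in skin and was not detected in oral mucosa, at 66.4 ± 8.97, a bound of -2.37 ± 0.10 on the VSN scale, while its scanner signal in skin was 2.02 times that in oral mucosa. It was the only one of these past the size rule. miR-1906 was detected in oral mucosa alone, at 92.4 ± 6.21 (skin 57.7 ± 6.05), and miR-1188-3p in skin alone, at 60.3 ± 22.0 (oral mucosa 60.2 ± 7.47). miR-434-3p, a microRNA antisense to Rtl1, was not detected, at 41.2 ± 4.6 and 51.0 ± 0.382.

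Some imprinted microRNAs of other chromosomes were looked at in the same way. Of 10 arms of miR-335, miR-675, miR-483, miR-296 and miR-298, 2 were detected, also beside 29.7%. miR-483-5p, which lies within the growth factor gene Igf2, gave 616 ± 127 in skin and 695 ± 97.4 in oral mucosa, and differed by -0.29 ± 0.39. miR-296-3p was detected in skin alone, at 97.7 ± 69.1 (oral mucosa 57.3 ± 0.962), 1.71 times its scanner signal in oral mucosa. Its bound was -1.68 ± 2.33, with an SD that exceeds it. Neither arm of miR-675, which is cut from the imprinted non-coding RNA H19, was detected. The list leaves out the miR-297, miR-466, miR-467 and miR-669 microRNAs of the Sfmbt2 cluster and does not stand for imprinted microRNAs in general. Among those left out, miR-466i-5p gave 4812 in skin and 8582 in oral mucosa, and miR-466l-3p was undetected.

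The arrays differed in markers of other cell types, which are given here beside the differences of the cluster. Sums are of scanner signals, not scaled between the arrays and with the background of undetected spots in them, and differences and medians of the detected microRNAs are on the VSN scale. In bulk tissue, fewer cells of a type and less RNA per cell cannot be told apart. All 7 epithelial microRNAs were detected, and their summed signal was 49230 in skin and 48780 in oral mucosa, with miR-205-5p and miR-203-3p the brightest. Their median difference was -0.48, with miR-205-5p at -0.51 ± 0.59 and miR-203-3p at -0.48 ± 0.37. Of the 7, miR-200c-3p was past 2-fold higher in skin, at -1.23 ± 0.46, and miR-429-3p past 2-fold higher in oral mucosa, at 1.11 ± 0.89. The 6 mesenchymal microRNAs summed to 694 in skin and 2034 in oral mucosa, with a median difference of 1.64, and 5 of them were past 2-fold higher in oral mucosa, miR-214-3p, the brightest, at 2.16 ± 0.19 and miR-199a-3p at 1.49 ± 0.35. For miR-143-3p, 1 of these 5, the value of 2.03 ± 0.05 is a bound, with a scanner signal in oral mucosa 2.98 times that in skin. miR-152-3p, the sixth, was at -0.71 ± 0.30.

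Blood and vessel markers also differed. miR-451a, the red blood cell microRNA, gave 67.3 ± 7.34 on the skin array, close to the limit, and 3056 ± 171 on the other, which differed by 6.22 ± 0.37 on the VSN scale, while both arms of miR-144 were undetected, and the 3 red blood cell microRNAs summed to 141 and 3154. miR-126a-3p of endothelium was detected in oral mucosa alone, with a bound of 1.85 ± 0.70 and a scanner signal 3.58 times that in skin, and miR-126a-5p on neither array, with sums of 81.6 and 200.2. Of 6 skeletal muscle microRNAs on the array 3 were detected, none past 2-fold, with sums of 377 and 519 and miR-1a-3p undetected. miR-206-3p, the brightest, was at -0.19 ± 0.36, and miR-133a-3p and miR-133b-3p, detected in oral mucosa alone, had bounds of 0.71 ± 0.24 and 0.54 ± 0.13, with scanner signals 1.98 and 1.81 times those in skin. Of 7 neural microRNAs 2 were detected, with sums of 384 and 451, and miR-124-3p and both arms of miR-9 were undetected. The detected ones were miR-138-5p, the brightest, at -0.22 ± 0.07, and miR-128-3p at -0.53 ± 0.20. The part of these cell types in the difference of miR-665-5p and of the other members was not tested.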

How the data were processed

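The authors deposited the scanner intensity of each spot (median Cy5 brightness, not background-corrected and not scaled between arrays) and 1 processed intensity per microRNA and array, whose background correction and scaling are not given in the sources used here. The arrays held 3968 spots, 184 of them controls. Arrays were assigned to tissues by their labels.

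Repeat spots were averaged and the arrays were scaled by VSN, the method named by the study, rewritten in Python 3.11.15 (numpy 2.4.6, scipy 1.17.1, pandas 2.3.3). In the fit 90% of the microRNAs were kept in each of 5 signal slices except the dimmest. The code was tested on simulated data in which only brighter microRNAs were changed, by 4-fold. That test does not speak for dim members or for the 2-fold rule. Fitted offsets were 38.1 (skin) and 46.5 (oral mucosa), and the gain of oral mucosa over skin was 1.38. Normexp was run in R 4.3.3 with limma 3.58.1. As each tissue had 1 array, no test was made. Their number, 1 per tissue, limits the precision. The pooled SD of repeat spots of detected microRNAs was 0.483 (log2) for skin and 0.195 for oral mucosa.

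The members and lists were chosen with earlier results of these data known. All members detected on at least 1 array were named, together with the detected ones of the other imprinted and other locus lists; marker lists are given by counts, sums, medians and examples. Undetected microRNAs named for their roles, and these examples, were chosen after their values were seen. Precursor positions are from RefSeq. Normalization, background, detection limit, size rule and spot choice were varied in 19 alternatives.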

Additional observations from a re-analysis of the deposited data

How the results depend on the processing

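The count of members past 2-fold (3) became 1 with quantile normalization, median scaling, 75th percentile scaling, no normalization and the authors' processed values (log2 of value plus 50), the 1 being miR-665-5p each time, beside 14.2%, 15.1%, 15.1%, 18.1% and 15.5% of all detected microRNAs. It was 7 with a 1.5-fold rule (45.7% of all), 1 with a 4-fold rule (8.19%), 5 with detection at 2 SD (30.1%), 26 of 98 with no detection filter (33%), 5 with the earlier repeat spot alone (28.9%), 5 with column 1 left out (29.7%) and 6 with columns 1 and 2 left out (29.8%). The 10 detected members had no spot in those columns, but other members had, and leaving out either set raised the detected members to 12. Among the other settings the count stayed between 2 and 4, beside 24.9% to 28.9% of all.

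The median difference of the detected members (0.65) was 0.27 with quantile normalization, 0.42 with median scaling, 0.27 with 75th percentile scaling and 0.33 with the processed values. It was -0.03 with detection at 2 SD, 0.08 at 5 SD, -0.02 with no filter, 0.29 with the later repeat spot alone, 0.28 with column 1 left out and 0.29 with columns 1 and 2 left out. In the remaining settings it moved by less than 0.21, the SD of the medians from the earlier and the later spots. With no normalization the median of all microRNAs shifted to 0.40, against which the members' 0.72 is to be read. The differences of miR-665-5p and miR-667-3p, which were detected on both arrays under the main settings, kept their sign over the alternatives. The value of miR-300-3p is a bound, and the sign of a bound is fixed by the array with the detection. It could not change sign, so its stable sign is not read as a result. The cause of these shifts was not tested. The local background was added after seeing the data.

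Limits: 1 pool per tissue, 2 spots per microRNA, and 7 of 10 detected members below 200 units. No paired analysis was possible because only 1 array was run per tissue.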
